A study of Bos taurus with 6 samples.

Results

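Plasminogen activators and their inhibitors are described here in bovine granulosa cells, through 9 genes: the activators PLAT and PLAU, the receptor PLAUR, plasminogen itself (PLG), the inhibitors SERPINE2, SERPINB2 and SERPINF2, and the cell surface pair ANXA2 and S100A10. They were picked by symbol as members of the system, with earlier results of these data known, and every probe that the array's annotation assigns to them was taken. That gave 10 of the 43794 probes of the EmbryoGENE bovine array, 1 for each gene and 2 for SERPINB2. Signal above background was found for 9 of the 10 probes, which stand for 8 of the 9 genes, out of 23480 tested probes in all. The long FSH group was 3 beef cows given FSH (gonadotropin) at 12 h intervals for 7 days, and the conventional FSH group was 3 beef cows given it for 4 days. In both groups follicles were ablated before treatment, cows carried a progesterone device, received prostaglandin and then LH, and were ovariectomized 24 h after LH. Mural and antral granulosa cells of the 3 largest follicles of each cow were pooled as RNA and amplified, so a value is an average over follicles of 1 cow. The RNA of 1 long FSH cow and 1 conventional FSH cow was hybridised together on 2 arrays with the dyes (Cy3 and Cy5) swapped, which gives 3 cow pairs on 6 arrays.

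Plasmin is a broad protease that cuts fibrin and other matrix proteins and activates other proteases. It is made from plasminogen, a liver protein that reaches the follicle with plasma, by tissue-type (PLAT) or urokinase-type (PLAU) plasminogen activator, and serpins block both the activators and plasmin. In the ovary the gonadotropin surge is known to raise plasminogen activator activity before the follicle wall opens, and granulosa cells make activators as well as inhibitors. The comparison of the groups asks whether this system, as RNA, differed 24 h after LH between follicles that had grown under FSH for a longer or a shorter time.

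All ratios below are log2 of long FSH over conventional FSH, so a value of 1 is a doubling. The mean of the 2 swapped arrays counts as 1 replicate, and n = 3 cow pairs unless stated. The sample labels and the design text give opposite dyes to the groups. The direction used follows the design text, and it is likely rather than settled. The legends of the study name conventional FSH as the reference group but give no dye. Were it the other one, each rise given here would be a fall and each fall a rise. A probe is said to have risen or fallen where limma's unadjusted p was 0.05 or less and the difference at least 2-fold, which are the study's limits. Of all tested probes, 2.48% rose and 1.46% fell by this rule. None (0%) reached an adjusted p of 0.05 (Benjamini-Hochberg over all tested probes), and 9.46% met the limit on the unadjusted p when fold was left out of account.

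Of the 9 tested probes of the plasminogen system, 3 rose in the long FSH group (PLAT, PLAU and S100A10), 1 fell (SERPINE2) and 5 did not pass, so 4 of 9 passed in either direction, against 3.94% of all tested probes. Thus both activators and the plasminogen-binding protein S100A10 were higher, with mean differences of 4.24- to 4.87-fold, while the inhibitor SERPINE2 was 3.65-fold lower. On the arrays with long FSH in Cy5 alone the fall of SERPINE2 did not pass. The median log2 ratio over the 9 was 0.30, and over all tested probes 0.02. The study itself names PLAT and SERPINE2 as changed on these arrays, so for that pair the direction is not independent evidence. All 9 genes were picked with earlier results of these data known, so the share of 4 of 9 beside 3.94% is not independent evidence either. None of the 9 reached an adjusted p of 0.05. When all 6 arrays entered limma with the cow pair as a block, which counts both arrays of a pair, the adjusted p was 0.00237 for PLAU, 0.0151 for PLAT, 0.0196 for S100A10 and 0.131 for SERPINE2.

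**Figure D1:**
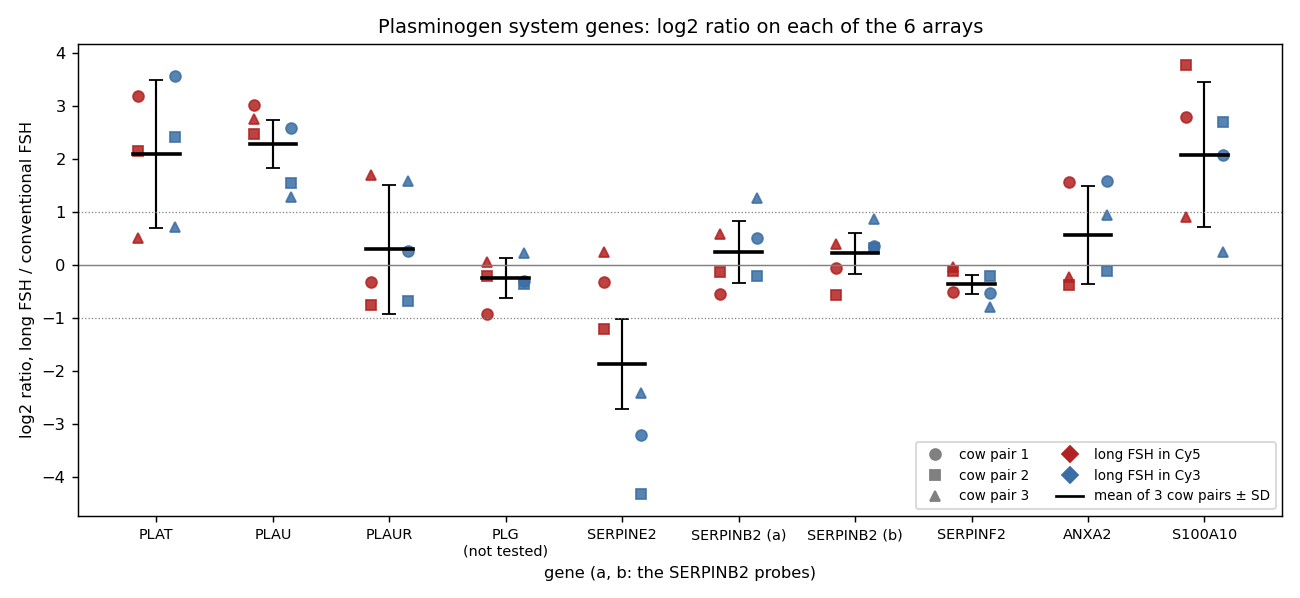
Log2 ratio of long FSH over conventional FSH (y axis) of each probe (x axis) on each of the 6 arrays, with shape for the cow pair, colour for the dye of the long FSH sample, and the mean of 3 cow pairs ± SD in black. PLAT, PLAU and S100A10 lie above 0 on all 6 arrays, and SERPINE2 splits by dye, between -1.21 and 0.24 with long FSH in Cy5 and between -4.32 and -2.41 with long FSH in Cy3.

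PLAU, the urokinase-type activator, which acts mostly at the cell surface, rose in the long FSH group. Its background-subtracted signal was 747 to 2220 (median 1640) over the 6 readings of long FSH cows and 158 to 546 (median 248) over the 6 readings of conventional FSH cows, so no reading of one group reached the other. All 6 conventional FSH readings were above background, but the lowest, 158 in Cy3 on array 2, barely exceeded its background limit of 155.8. The fold of PLAU thus rests on low conventional FSH signals. After normalization the level, as log2 intensity averaged over both dyes, was 10.66, 9.65 and 10.87 in the long FSH cows of pairs 1, 2 and 3, against 7.85, 7.63 and 8.84 in the conventional FSH cows. The groups of 3 cows did not overlap, as was the case for 14.2% of all tested probes, 7.86% with long FSH above and 6.32% with long FSH below. PLAU and SERPINE2 were the 2 of 9 probes of the system with separate groups. The log2 ratio was 2.81, 2.02 and 2.03 in pairs 1, 2 and 3, a mean of 2.28 ± 0.46 (SD, n = 3 cow pairs), or 4.87-fold (95% interval 3.17 to 7.48). Limma gave an unadjusted p of 0.00014 and an adjusted p of 0.127. By unadjusted p the probe ranked 23 of 23480, and 0.127 was also the smallest adjusted p of any probe. PLAU passed the study's limits in all 22 alternative settings, at 1.81 to 2.76. Among them, the sign of the deposited log2 ratios was set by the labelled dyes.

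PLAT, the tissue-type activator, which is best known for working on fibrin, rose as well but unequally between pairs. Its signal was 4645 to 13015 (median 9327) in long FSH readings and 674 to 8866 (median 1771) in conventional FSH readings. The normalized level was 12.65, 13.22 and 13.48 in the long FSH cows of pairs 1, 2 and 3, against 9.26, 10.93 and 12.86 in the conventional FSH cows. The long FSH cows thus lay within a narrow band while the conventional FSH cows were spread widely, and the conventional FSH cow of pair 3 was above the long FSH cow of pair 1. The log2 ratio was accordingly 3.39, 2.29 and 0.62 in the 3 pairs, with a mean of 2.10 ± 1.40 (SD, n = 3 cow pairs), or 4.28-fold (95% interval 1.75 to 10.5, unadjusted p = 0.00793 and adjusted p = 0.335 from limma). With limma's trend and robust options PLAT did not pass, as its p was 0.0517. Without pair 1 its mean log2 ratio was 1.45, against 2.84 without pair 3.

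**Figure D2:**
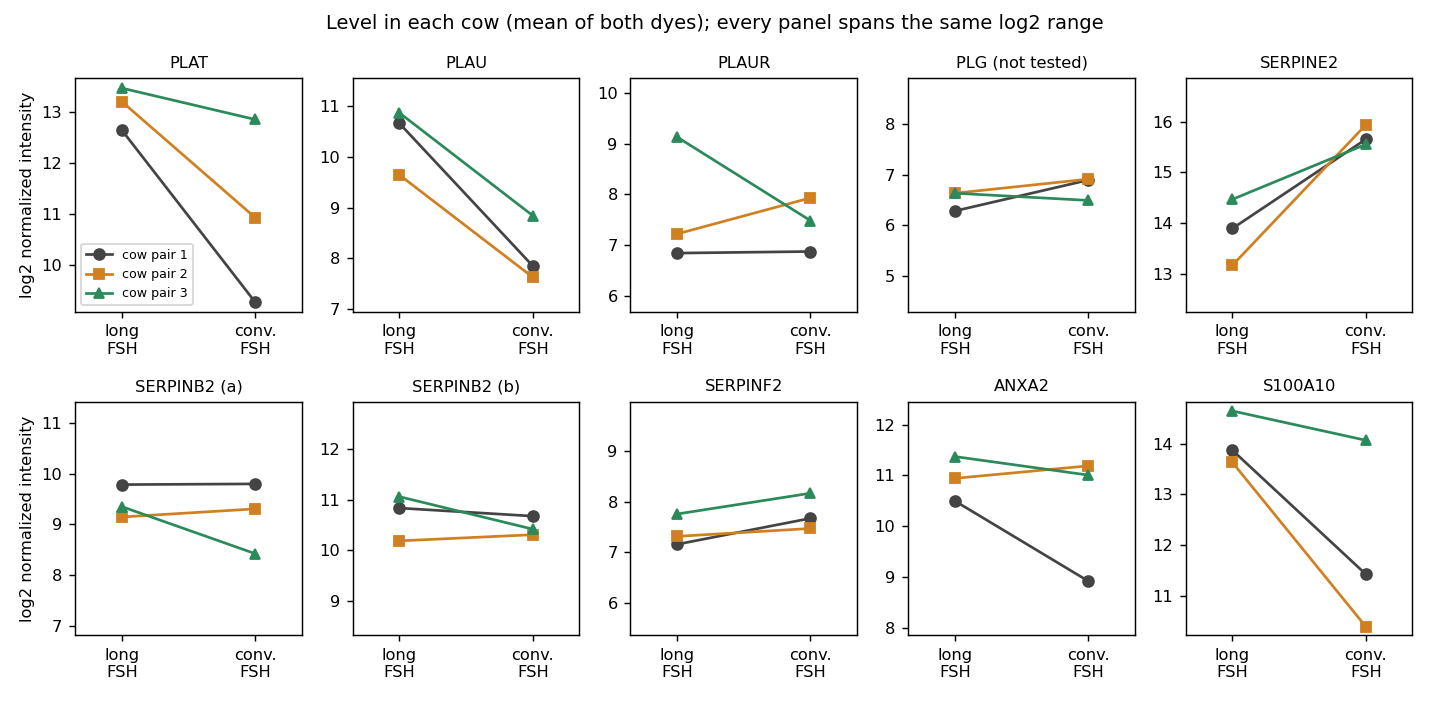
Normalized log2 intensity (y axis) of each probe in the long FSH cow (left) and the conventional FSH cow (right) of each cow pair, the mean of both dyes, with lines joining the cows of a pair. The lines of PLAT, PLAU and S100A10 run down to the conventional FSH cow in all 3 pairs, those of SERPINE2 run up, and pair 3 has the shallowest line for PLAT and S100A10.

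PLAUR, the surface receptor that holds urokinase on the cell, lay near background. It was above background in 3 of 6 long FSH readings and 5 of 6 conventional FSH readings, with signals of 99 to 637 and 94 to 240. Its log2 ratio was -0.03 and -0.71 in pairs 1 and 2 and 1.65 in pair 3, a mean of 0.30 ± 1.21 (SD, n = 3 cow pairs), with a 95% interval of -0.85 to 1.45. Both arrays of pair 3 gave the higher value, at 1.71 and 1.59, and without pair 3 the mean was -0.37. The probe of PLG, the zymogen that the activators cut, was not well above background in any of its 12 readings, which were 74 to 144 in long FSH and 75 to 139 in conventional FSH. It was not tested and no fold is given.

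SERPINE2, also called protease nexin, inhibits thrombin, urokinase and plasmin and is a product of growing bovine follicles. Its normalized level was 13.89, 13.17 and 14.47 in the long FSH cows of pairs 1, 2 and 3, against 15.65, 15.93 and 15.55 in the conventional FSH cows. Averaged over both dyes the groups did not overlap, and the conventional FSH cows lay closer together than the long FSH cows. Single readings did overlap, with a background-subtracted signal of 3116 to 54154 in long FSH and 45388 to 64056 in conventional FSH. The log2 ratio was -1.76, -2.77 and -1.08 in the 3 pairs, with a mean of -1.87 ± 0.85 (SD, n = 3 cow pairs), or 3.65-fold lower (95% interval 2.00 to 6.69, unadjusted p = 0.00222 and adjusted p = 0.239 from limma).

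That fall differed between the array orientations and passed in only 1 of them, so both the fold and the call are uncertain. On the 3 arrays with long FSH in Cy5 the log2 ratio of SERPINE2 was -0.31, -1.21 and 0.24 in pairs 1, 2 and 3, and on the swapped arrays it was -3.20, -4.32 and -2.41. The arrays with long FSH in Cy5 alone gave a mean of -0.43 that did not pass (unadjusted p = 0.282, limma), and the swapped arrays alone gave -3.31. The means of the orientations were 2.88 apart, where the median over all tested probes was 0.328, and 0.477% of probes had a gap at least as large. On the slide of arrays 1 and 2 the mean log2 ratio was -0.76, and on the slide of arrays 4 and 5 it was -3.76. Each slide held 1 orientation, so dye and slide cannot be told apart. The conventional FSH readings ran from 48063 to 64115 in Cy5 and from 45428 to 58779 in Cy3 before background subtraction, and the brightest probe reading of an array was 59508 to 65522 in Cy5 and 58779 to 62105 in Cy3. In Cy3 on array 1 that brightest probe reading, 58779, was equal to the one of SERPINE2 itself. The long FSH readings were 25564 to 54198 in Cy5 and 3136 to 10209 in Cy3. Whether brightness near the top of the scanner's range changed the ratio was not tested. For PLAT, PLAU and S100A10 all 6 arrays lay above 0, with 1.95, 2.76 and 2.50 as the means with long FSH in Cy5 and 2.24, 1.81 and 1.68 with long FSH in Cy3.

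**Figure D3:**
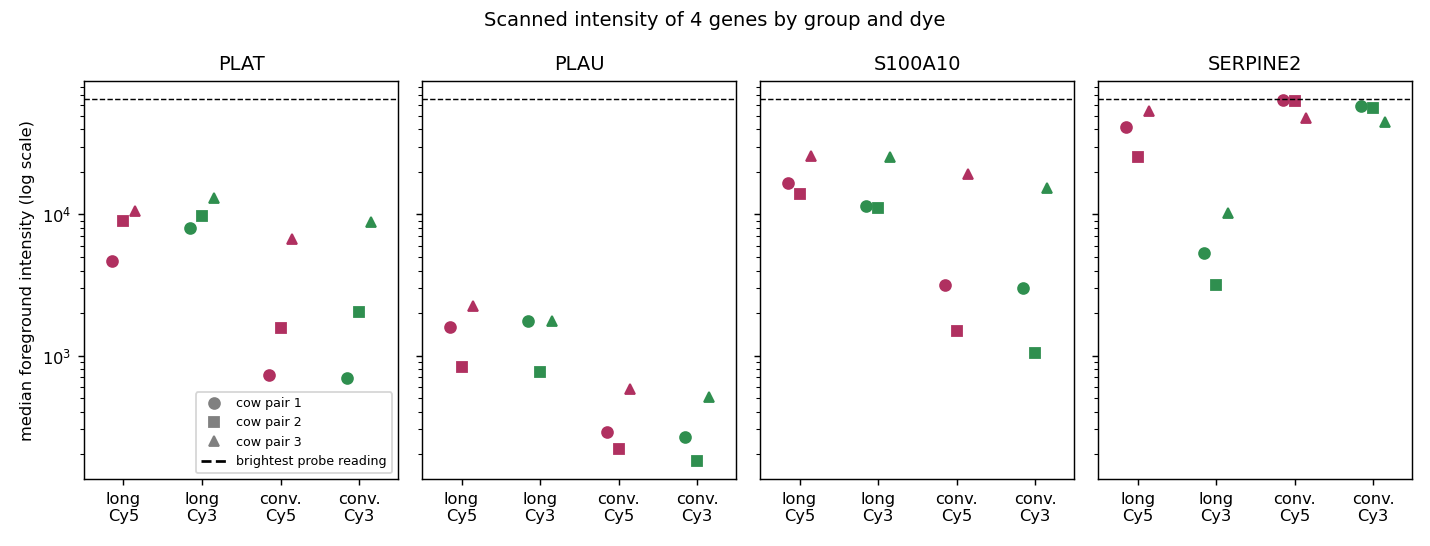
Median foreground intensity as scanned (y axis, log scale) of PLAT, PLAU, S100A10 and SERPINE2 by group and dye, with shape for the cow pair and a dashed line at the brightest probe reading of any array, 65522. SERPINE2 readings of conventional FSH cows lie between 45428 and 64115 in both dyes, while those of long FSH cows differ between Cy5 and Cy3.

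The other inhibitors stayed within a narrow range. SERPINB2, an inhibitor of urokinase that is also known as PAI2, had 2 probes, both above background in all readings. Probe EMBV3_03257 (a in the plots) gave log2 ratios of -0.01, -0.16 and 0.93 in pairs 1, 2 and 3, with a mean of 0.25 ± 0.59 and a 95% interval of -0.45 to 0.95. Probe EMBV3_21893 (b) gave 0.16, -0.12 and 0.64, with a mean of 0.23 ± 0.39 and an interval of -0.36 to 0.81. The probes thus ordered the pairs alike, with pair 3 highest, and neither passed. SERPINF2, which encodes alpha-2-antiplasmin, the main plasma inhibitor of plasmin, was above background in 5 of 6 long FSH readings and 6 of 6 conventional FSH readings. It lay below 0 on all 6 arrays, at -0.51, -0.16 and -0.41 in the pairs, with a mean of -0.36 ± 0.18 and an interval of -0.86 to 0.14, and did not pass either. Hence of the 3 inhibitors measured only SERPINE2 met the limits, though these intervals leave room for smaller differences in the other two.

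S100A10 and ANXA2 form a complex on the cell surface that binds plasminogen and the tissue-type activator. The signal of S100A10 was 11121 to 25955 (median 15199) in long FSH readings and 1027 to 19198 (median 3048.5) in conventional FSH readings. Its normalized level was 13.87, 13.63 and 14.64 in the long FSH cows of pairs 1, 2 and 3, against 11.42, 10.39 and 14.06 in the conventional FSH cows. As for PLAT, the conventional FSH cow of pair 3 was high, above the long FSH cows of pairs 1 and 2. The log2 ratio was 2.44, 3.24 and 0.58 in the pairs, with a mean of 2.09 ± 1.36 (SD, n = 3 cow pairs), or 4.24-fold (95% interval 1.76 to 10.2, unadjusted p = 0.00749 and adjusted p = 0.334 from limma). It did not pass without pair 1, where the mean was 1.91 and limma's p was 0.0534, nor with the trend and robust options, where it was 0.0512. ANXA2, the annexin partner, had log2 ratios of 1.58, -0.25 and 0.36, with a mean of 0.57 ± 0.93 and an interval of -0.37 to 1.50, and did not pass. Its mean was 0.06 without pair 1, and 0.97 without pair 2, just inside the 2-fold limit. Within pairs, S100A10 exceeded ANXA2 in log2 ratio by 0.86, 3.48 and 0.21.

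The gap between activator and inhibitor was seen in every pair. The log2 ratio of PLAU exceeded that of SERPINE2 by 4.57, 4.78 and 3.11 in pairs 1, 2 and 3, a mean of 4.15 ± 0.91. For PLAT the excess was 5.15, 5.05 and 1.70, a mean of 3.97 ± 1.96 (SD, n = 3 cow pairs). The size of both gaps rests on SERPINE2, at -0.43 with long FSH in Cy5 and -3.31 with long FSH in Cy3. These are differences between ratios and not between levels, and were given no test because the genes were chosen with results known. In pooled tissue RNA, fewer cells of a type and less RNA per cell cannot be told apart.

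Further genes of the plasminogen system were listed by role, 47 in all, of which 41 had a probe and 30 were tested. Of these 30, 2 rose, none fell and 28 did not pass. Over all 9933 tested genes, each by its brightest tested probe, 3.39% rose and 2.02% fell, 5.42% in all. The median log2 ratio was 0.09 over the lists and 0.03 over all tested genes. Outside the 9 genes, therefore, the share that passed was near that of all genes.

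FN1, fibronectin, a matrix protein that plasmin cuts, was the larger of these rises, with log2 ratios of 2.97, 1.67 and 1.49 in pairs 1, 2 and 3 and a mean of 2.04 ± 0.81 (SD, n = 3 cow pairs, adjusted p = 0.203 from limma). The other 10 tested substrates did not pass. Among them MMP9, a matrix metalloproteinase, was at 0.29 and BDNF, a neurotrophin whose precursor plasmin can process, at -0.55, and the fibrinogen chains FGB and FGG were at -0.17 and 0.20. MMP9 in conventional FSH and BDNF in long FSH had 1 of 6 readings above background. FGG had 2 of 6 in long FSH and 3 of 6 in conventional FSH, so these ratios lie near background. FGA had no conventional FSH reading above background. Of 6 tested further inhibitors, A2M, alpha-2-macroglobulin, a trap for many proteases, rose with 0.30, 0.73 and 2.01 in the pairs and a mean of 1.01 ± 0.89 (adjusted p = 0.488), just past the fold limit. SERPINI1, neuroserpin, an inhibitor of the tissue-type activator, lay just inside it at 0.98 ± 0.24 and did not pass. None of the 11 tested receptors and cofactors passed. ITGB1, the integrin beta 1 chain, was above background in 4 of 6 long FSH readings and 0 of 6 conventional FSH readings, so no ratio is given, and LRPAP1, a chaperone of the receptors that clear activator-inhibitor complexes, had -0.89. Of the proteases that activate plasminogen or urokinase, ST14 (matriptase) at 0.17 and CTSB (cathepsin B) at 0.21 were tested and did not pass. ST14 lay near background, above it in 2 of 6 long FSH and 3 of 6 conventional FSH readings, and its other probe was at 0.41.

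**Figure D4:**
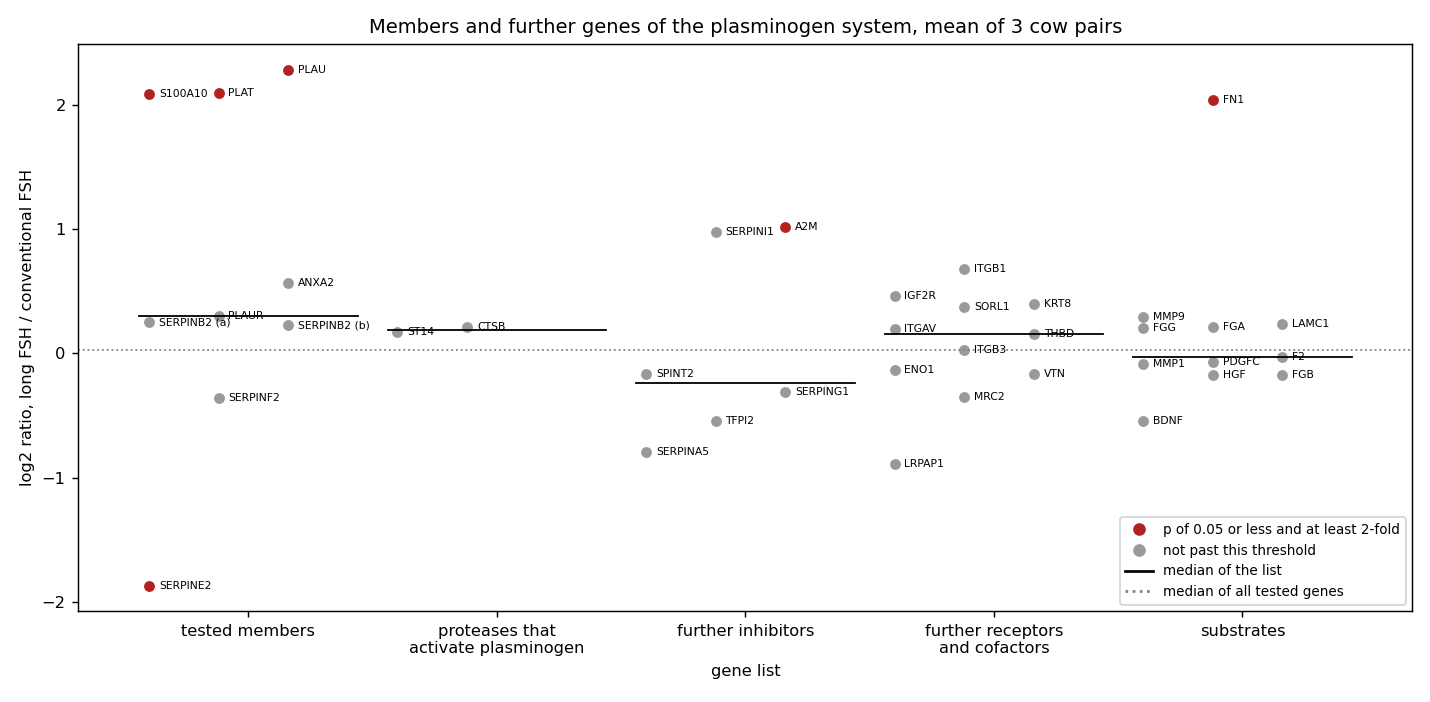
Mean log2 ratio of long FSH over conventional FSH in 3 cow pairs (y axis) of the 9 tested member probes and of the 30 further tested genes by role (x axis), red where past the study's limits. Outside the members only FN1 at 2.04 and A2M at 1.01 are red, and the list medians lie between -0.24 and 0.30. The points of ITGB1, FGA and MRC2 were not above background in 1 of the groups and are bounds only. MMP9 in conventional FSH and BDNF in long FSH had 1 of 6 readings above background.

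Leukocytes also make urokinase and its receptor, so their markers were read beside these genes. Of 19 leukocyte markers 13 were tested, of which 3 rose (TYROBP, LYZ and CD53), none fell and 10 did not pass. Over all tested genes 3.39% rose and 2.02% fell. TYROBP and LYZ were tested only because of their long FSH readings, with 0 and 2 of 6 conventional FSH readings above background. The same holds for CD14, CD163, CD3D, FCER1G, AIF1, CD48 and CORO1A, each with 1 or 2 of 6 conventional FSH readings above background. Most of the 13 tested markers thus entered through long FSH alone, so their count and median are tied to that filter. The other probe of CD53 was at 0.33. The median log2 ratio of the 13 markers was 0.26, 0.05 and 2.59 in pairs 1, 2 and 3. Their summed normalized intensity was 4296 to 19016 in long FSH cows and 2945 to 6729 in conventional FSH cows. Of the defining markers, PTPRC was at 0.10 and was -0.57 in pair 3, CD14 was above background in 3 of 6 long FSH and 1 of 6 conventional FSH readings, and CD68 was at 2.59 in pair 3. PLAUR was highest in that same pair, whereas PLAT and S100A10 were lowest there and PLAU was near 2 in pairs 2 and 3 alike. The part of leukocyte RNA in the values of PLAUR, PLAU and SERPINB2 was not tested. Without pair 3 the log2 ratio was 2.41 for PLAU, 2.84 for PLAT, 2.84 for S100A10 and -2.26 for SERPINE2, and the same genes passed, 3 higher and 1 lower.

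**Figure D5:**
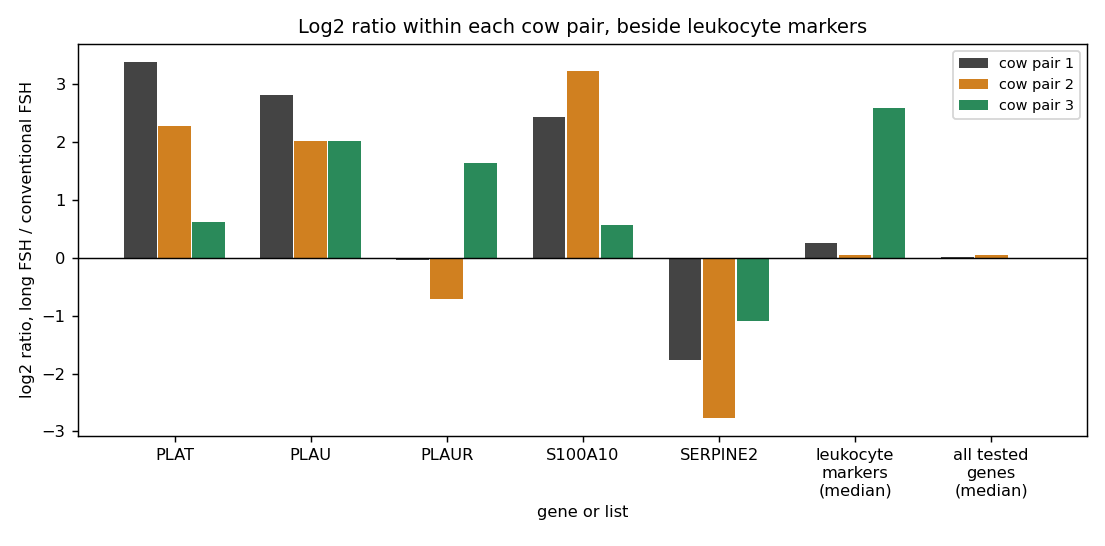
Log2 ratio of long FSH over conventional FSH (y axis) within each cow pair for PLAT, PLAU, PLAUR, S100A10 and SERPINE2, beside the median of 13 leukocyte markers and of all tested genes. The leukocyte median stands at 2.59 in pair 3 and below 0.3 in the others, and PLAUR is highest in pair 3 while PLAT and S100A10 are lowest there. Most of the 13 leukocyte markers were tested only because of their long FSH readings.

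The granulosa label was checked by 10 markers, of which 8 were tested. INHA, the inhibin alpha subunit, and FSHR, the FSH receptor, were above background in all 12 readings. AMH was above it in 2 of 6 long FSH and 5 of 6 conventional FSH readings, the aromatase CYP19A1 in 5 of 6 long FSH and 6 of 6 conventional FSH readings, and FOXL2 in none. The summed intensity of the 8 was 47362 to 49769 in long FSH cows and 53439 to 57578 in conventional FSH cows, and 1 rose (NR5A2, by 1 of its 3 probes), 1 fell (CYP19A1) and 6 did not pass. Of theca markers 10 of 13 were tested, of which none rose and 2 fell (DCN and LUM). For these counts of granulosa and theca markers, the share of all tested genes was 3.39% higher and 2.02% lower. The summed intensity of the 10 was 17703 to 21860 in long FSH cows and 16261 to 44739 in conventional FSH cows. The theca enzyme CYP17A1 was above background in 2 of 6 long FSH readings and 0 of 6 conventional FSH readings. INSL3 was above it in 4 of 6 long FSH and 3 of 6 conventional FSH readings, and LHCGR in at most 2 of 6 in either group. COL3A1, LUM and ACTA2 were above it in all 12 readings. None of 5 tested endothelial markers (12 listed), 2 neutrophil markers or 2 red blood cell markers passed. PECAM1 was at background in all 12 readings. CDH5 was above background in 4 of 6 long FSH and 3 of 6 conventional FSH readings, TEK in 6 and 3, and ROBO4 in 5 and 5. Of 6 tested plasma protein genes 1 rose, TF (transferrin) at 1.33. Between 41.8% and 51.4% of probes exceeded background in a single reading. Swapped arrays correlated with r = 0.432, 0.647 and 0.240 across tested probes in pairs 1, 2 and 3. Precision is limited by there being 3 cow pairs.

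Over the levels of the 6 cows, which share arrays within a pair, PLAT followed S100A10 with Pearson's r = 0.85, PLAU with 0.80 and ANXA2 with 0.79, and ran against SERPINE2 with -0.65. These coefficients describe 6 points and include the difference between the groups. The genes nearest to PLAT were LOC511136, LYSMD1, HNRNPLL, LOC785745 and CAND2, with r of 0.99 to 1.00, and those nearest to SERPINE2 were H2AZ1, LRP11, SLC25A22, AARS1 and COLEC10, with r of 0.98 to 0.99. With so few cows 2.75% of all tested genes had an r of 0.9 or more to PLAT and 1.29% to SERPINE2. Of the named genes nearest to PLAT, CAND2 had a log2 ratio of 1.90 and LOC785745 of 1.77. HNRNPLL, LOC511136 and LYSMD1 lay inside the 2-fold limit, at 0.71, 0.35 and 0.17. Of those nearest to SERPINE2, H2AZ1, a histone variant, had a log2 ratio of -1.68. LRP11, SLC25A22, AARS1 and COLEC10 lay inside the 2-fold limit, at -0.27, -0.41, -0.32 and -0.34.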

How the data were processed

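The authors scanned each array and deposited, per spot and dye, the median intensity of foreground and local background. They also deposited a table of log2 ratios (background subtraction, negative values set to 0.5, loess and quantile normalization, per the study's methods). Its column medians are -0.00346 to 1.51e-06, its direction is not stated, and each column followed the swap partner of its array (r = 0.767 to 0.852), so it served as an alternative only, with its sign set by the labelled dyes, the reverse of that used for the intensities.

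Here background was taken off, values not above 0 became 0.5, loess was applied within arrays and Aquantile (mean intensities only) between them. Log2 ratios run long FSH over conventional FSH, averaged over both arrays of a pair. Limma 3.58.1 (R 4.3.3) was fitted to 3 pair means over 23480 probes, with Benjamini-Hochberg adjustment. Tested probes exceeded the mean plus 2 SD of 153 negative control spots in 3 or more of the 6 readings of a group. Same-numbered cows share arrays, and after group means were removed they correlated at r = 0.153 to 0.260, against -0.0131 at most for others. P-values and intervals rest on the spread between these cow pairs, which limma draws towards the spread of all tested probes. For PLAT and S100A10 limma's standard errors, 0.519 and 0.509, were smaller than their own SD over 3 pairs would give. Their p-values and intervals thus depend on that step. Symbols came from the platform annotation (21790 probes with 1 symbol, 22004 with none), and 1524 probes with older symbols were renamed through RefSeq's gene table, in which all 9 symbols matched.

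The members and lists were chosen with earlier results of these data known. Named were all member probes, listed genes past the study's limits or, where none passed, with the smallest p, the first markers of a list, and the 5 genes nearest to PLAT and SERPINE2. Other listed genes named were chosen after their values were seen. Scripts were tested on simulated data. Alternatives covered background correction, normalization, the filter, replicates, slide, limma options, the deposited table, a gene's probes, dye orientation and leaving out each pair or array.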

Additional observations from a re-analysis of the deposited data

How the results depend on the processing

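PLAU kept its direction and its side of the study's limits in all 22 alternative settings, PLAT in 21, SERPINE2 in 21 and S100A10 in 20, and settings by dye orientation were chosen after seeing the data. All other settings combine both orientations, so they cannot show the gap between orientations of SERPINE2. Its count therefore does not speak to that gap, and the setting it did not pass was long FSH in Cy5 only (-0.43). The deposited table is among these settings. Its sign was set by the labelled dyes, so the direction in it is no separate evidence. Results that reversed were PLAUR without pair 3 (-0.37), SERPINB2 probe EMBV3_03257 without pair 3 (-0.087) and with long FSH in Cy5 only (-0.026), and SERPINB2 probe EMBV3_21893 with long FSH in Cy5 only (-0.068), none past the limits. Leaving out 1 pair or array gave -0.37 to 0.81 for PLAUR and -0.087 to 0.46 for EMBV3_03257. The cause of these and the changes below was not tested.

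With the trend and robust options 136 probes rose (582 as reported) and 1 member rose (3 as reported), and in the log2 ratios as deposited, 313 did. With long FSH in Cy5 only, 566 probes fell (342 as reported) and 0 members fell (1 as reported), and with long FSH in Cy3 only 988 rose and 723 fell. Past the adjusted threshold (0 as reported), there were 3 probes with no filter on dim probes, 246 probes and 2 members with long FSH in Cy5 only, and 168 probes and 1 member with long FSH in Cy3 only. With 6 arrays and the cow pair as replicate block (consensus correlation 0.145), 590 probes and 3 members (PLAT, PLAU and S100A10) passed that threshold. Without the block 666 probes and 3 members did, and with the slide as a block 648 probes and 3 members. These fits count arrays of the same extracts as separate replicates, and SERPINE2 had an adjusted p of 0.131, 0.0842 and 0.0871 in them. Leaving out 1 pair or array gave 504 to 1068 probes higher, 303 to 742 lower and 0 to 90 past the adjusted threshold, with the highest of each without pair 3, and 2 to 3 members higher, 1 to 1 lower and 0 to 1 past the adjusted threshold (S100A10, without pair 3).

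Of the pathway lists 2 genes rose and 0 fell as reported. With normexp, with no background correction, with quantile normalization, with probes required above background in all 6 readings of a group, with trend and robust and in the log2 ratios as deposited, 1 rose. With long FSH in Cy3 only 1 fell, and leaving out 1 pair or array gave 1 to 3 higher and 0 to 1 lower. Signal over background limits PLAUR and SERPINF2, which lay near it, and PLG, which was not well above it. It also limits the fold of PLAU, whose conventional FSH readings went down to 158 against a background limit of 155.8.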

Other observations

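Relatives of the genes above were read as families, chosen after the values were seen and by symbol alone. Of 10 further annexins 8 were tested, of which 2 rose in the long FSH group and none fell. ANXA1, which encodes an anti-inflammatory calcium-dependent phospholipid-binding protein, had log2 ratios of 2.64, 2.27 and 2.91 in pairs 1, 2 and 3 (mean 2.60 ± 0.32, SD, n = 3 cow pairs, adjusted p = 0.127 from limma), while ANXA2 was at 0.57. ANXA3 was at 2.10 ± 0.82 with 1 of 6 conventional FSH readings above background, though its other probe was at 0.30.

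Of 16 further S100 genes 8 were tested and 1 rose, S100A4 at 1.12 ± 0.66, with 2 of 6 conventional FSH readings above background. S100A11, which like S100A10 can bind an annexin, was at 0.96 ± 0.82 and did not pass. Of 23 further serpins 10 were tested and 1 rose, SERPINB8, an intracellular serpin, at 2.43, 1.30 and 1.90 in the pairs (mean 1.87 ± 0.56, adjusted p = 0.189 from limma). SERPINH1, the collagen chaperone, was at -0.93 ± 0.50 and did not pass. The background over all tested genes was 3.39% higher and 2.02% lower.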
